A study of Homo sapiens with 4 samples.

Results

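Ribosome biogenesis factors are the proteins that transcribe ribosomal RNA, modify and cut its precursor, and assemble it with ribosomal proteins into the small and large subunits. The genes described here are 59 such factors, taken by gene name from the 58825 genes of the table, and each was found there once. They were placed in 5 classes by known role: 3 factors of RNA polymerase I, 8 of the small nucleolar ribonucleoproteins (snoRNPs), 26 of the small subunit, 18 of the large subunit, and 4 multifunctional proteins of the nucleolus. The class was assigned from background knowledge, and several members act in more than 1 step.

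RNA polymerase I makes a long precursor that holds the rRNAs of both subunits. Box C/D snoRNPs methylate it and box H/ACA snoRNPs turn uridines into pseudouridine, each guided by its small nucleolar RNA. The small-subunit processome folds and cuts the precursor, and later factors accompany each subunit out of the nucleolus and into the cytoplasm. These genes are known to be expressed together in growing cells, and MYC is a known activator of many of them. In epidermis, growth of this kind belongs mainly to the basal layer, where keratinocytes divide.

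The libraries came from HaCaT cells, an established human keratinocyte line, kept in MEPICF500 medium with calcium and treated with lentivirus. The knockdown group had shlnc-DC, a hairpin directed at lnc-DC, a long noncoding transcript, and the control group had the shNC hairpin, with 2 libraries each. The labels call these biological replicates; whether each had its own infection is not said, and every p-value reflects the variation among these 4 libraries, which may be technical. How many hairpin sequences were used is not given in the sources used here. Values are FPKM, fragments per kilobase of transcript, scaled to the sequenced total, which can be compared between genes because they are per length.

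The hairpin's target, WFDC21P, had 0.09 and 0.29 FPKM in the knockdown libraries, against 2.15 and 2.76 FPKM in the control libraries (log2 fold change -1.54, SE 0.188, limma adjusted p = 0.0715). The number of genes detected above 0 ranged over the libraries from 22351 to 22780, and read totals could not be recovered from the table. Mitochondrial transcripts held 28.1% and 26.8% of summed FPKM in the knockdown libraries, against 41.2% and 41.9% in the control libraries. With the nuclear genes of each library rescaled to the same total, the members' median log2 fold change was 0.38, against 0.43 without rescaling. Of 6 keratinocyte markers, KRT5, TP63, KRT10 and IVL were present, KRT14 stayed under 1 FPKM and KRT1 was listed at 0, so the label rests on part of its markers. Their summed level was 148 and 180.1 FPKM in the knockdown libraries, against 299.5 and 334 FPKM in the control libraries, most of it from KRT5. All 4 melanocyte and all 5 fibroblast markers stayed under 1 FPKM. Of 4 leukocyte markers only CD14 reached 1 FPKM and PTPRC was listed at 0, with a summed level of 1.0 and 1.3 FPKM in the knockdown libraries, against 3.06 and 1.59 FPKM in the control libraries. Of 4 endothelial markers only CDH5 reached 1 FPKM and KDR was listed at 0, with a summed level of 3.93 and 6.44 FPKM in the knockdown libraries, against 4.58 and 3.61 FPKM in the control libraries. In bulk libraries fewer cells of a type and less RNA per cell cannot be told apart, and the part of the mitochondrial share and of these markers in the results was not tested.

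Ribosome biogenesis transcripts had higher values in the knockdown, across every class and by a modest amount. All 59 members passed the filter of a mean of 1 FPKM in at least 1 group, and 58 of them had a log2 fold change above 0, where 61.4% of the 12411 tested genes did. For 51 members both knockdown values lay above both control values, against 35.6% of tested genes; for 8 members the groups overlapped, and for 0 members the knockdown values lay below. At an unadjusted limma p under 0.05, 34 members were higher, which is 57.6% of them, against 14.8% of tested genes, and 0 were lower, against 8.00% of tested genes. The members were chosen with earlier results of these data known, so these counts and shares describe them and are not an independent test. The median log2 fold change was 0.43 over the members and 0.09 over all tested genes, and the median ratio of mean FPKM was 1.40 over the members. The 59 genes together had 1923 and 2237 FPKM in the knockdown libraries, against 1482 and 1618 FPKM in the control libraries.

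No single member passed the test over all genes. The limma adjusted p was under 0.05 for 0 of 59 members, against 0.250% of tested genes, and its lowest value among them was 0.062, for NOL11. In data simulated for this comparison on 12411 genes, the same test recovered 78.6% of genes changed 2-fold on the log2(FPKM + 1) scale. Of its calls 8.96% were false. The changed genes were drawn only from those with a mean above 2 on that scale, so recovery at lower levels is unknown. No member reached a 2-fold change on that scale, where the highest log2 fold change was 0.99, for SBDS. Smaller changes were not simulated, so the recovery at the size of most members is unknown. NOL11 was the only member whose ratio of mean FPKM reached 2. Log2 fold changes are on the log2(FPKM + 1) scale unless a ratio is named. The size of the members' shift depends on how libraries are scaled: with tested genes centred on their median it was 0.35 for the members and 0.01 for all tested genes, and 56 members stayed above 0.

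**Figure D1:**
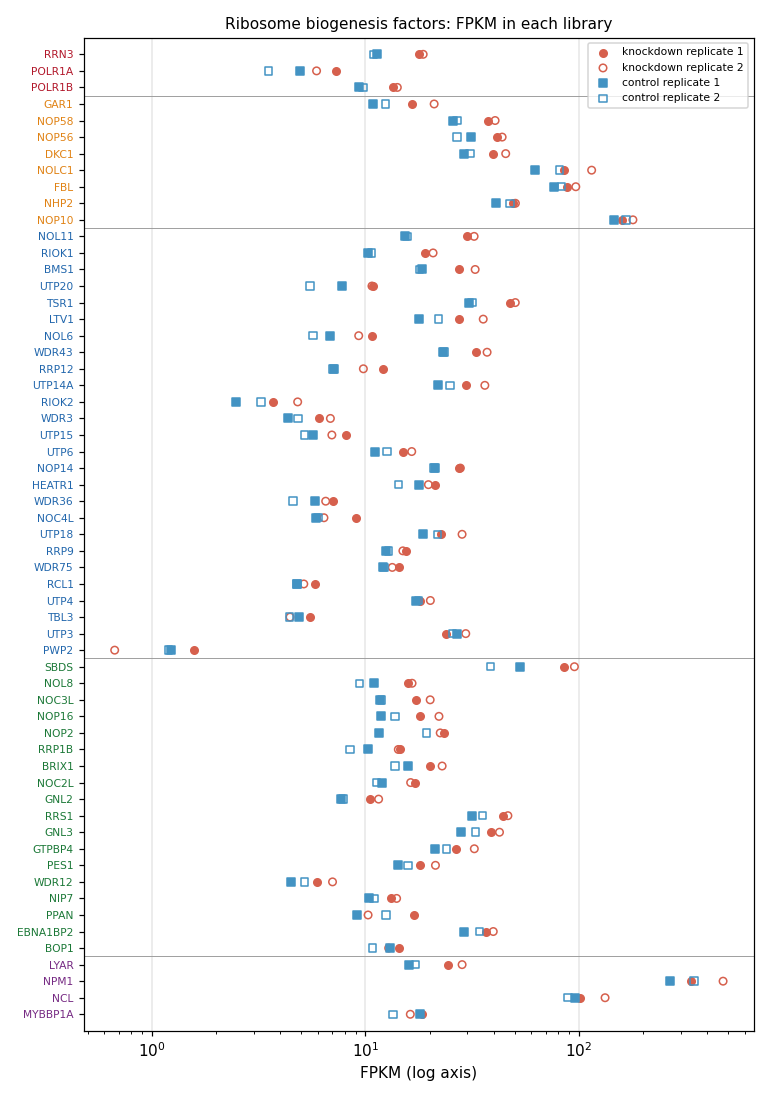
FPKM of the 59 members on a log axis, 1 row per gene, with the 2 knockdown libraries as circles and the 2 control libraries as squares (filled for replicate 1, open for replicate 2). Rows are grouped by class, in the order RNA polymerase I, snoRNP, small subunit, large subunit and multifunctional nucleolar, and the circles lie to the right of the squares in 51 of 59 rows.

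All 3 RNA polymerase I factors had higher values in both knockdown libraries than in both control libraries, as had 35.6% of tested genes. RRN3, the initiation factor that brings the polymerase to the rRNA gene promoter, had 17.8 and 18.7 FPKM in the knockdown libraries, against 11.3 and 10.9 FPKM in the control libraries, and the groups were far apart compared with their spread (log2 fold change 0.67, SE 0.103, limma adjusted p = 0.0812). POLR1A, the largest subunit of the enzyme, had 7.27 and 5.91 FPKM in the knockdown libraries, against 4.96 and 3.51 FPKM in the control libraries. POLR1B, the subunit that forms the active centre with POLR1A, had 13.4 and 14.1 FPKM, against 9.34 and 9.76 FPKM, so its replicates lay close together while those of POLR1A did not. The ratio of means was 1.64 for RRN3, 1.56 for POLR1A and 1.44 for POLR1B, and the limma adjusted p was 0.193 for POLR1A and 0.111 for POLR1B. Summed over the 3 genes the level was 38.6 ± 0.127 FPKM in the knockdown and 24.9 ± 1.03 FPKM in the control (SD, n = 2 each). RRN3 has 3 pseudogenes in the table, which together had 3.57 and 2.83 FPKM in the knockdown libraries, against 2.37 and 2.48 FPKM in the control libraries, far below RRN3 itself.

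Among the box C/D proteins the scaffold pair had larger fold changes than the enzyme, a difference that was not tested. NOP58 had 37.6 and 40.5 FPKM in the knockdown libraries, against 25.8 and 26.9 FPKM in the control libraries (log2 fold change 0.55, SE 0.106, limma adjusted p = 0.1). NOP56, its partner in every box C/D particle, had 41.4 and 43.7 FPKM, against 31.1 and 26.9 FPKM (log2 fold change 0.54, SE 0.122, limma adjusted p = 0.113). FBL, the methyltransferase of the particle, stood at a higher level, with 88.2 and 96.8 FPKM against 76.3 and 83.1 FPKM, and its log2 fold change was 0.21 with a 95% interval from -0.10 to 0.52. For all 3 of these genes both knockdown values lay above both control values, against 35.6% of tested genes.

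Of the box H/ACA proteins GAR1 and DKC1 had an unadjusted limma p under 0.05, and NHP2 and NOP10 did not. GAR1, a core protein of the particle, had 16.6 and 21 FPKM in the knockdown libraries, against 10.8 and 12.4 FPKM in the control libraries (log2 fold change 0.64, SE 0.158, limma adjusted p = 0.123). DKC1, the pseudouridine synthase mutated in dyskeratosis congenita, had 39.5 and 45.4 FPKM, against 29 and 31 FPKM (log2 fold change 0.49, SE 0.121, limma adjusted p = 0.124). NHP2 and NOP10 are small proteins that bind in the same particle: NHP2 had 49.3 and 50.4 FPKM against 41 and 47.5 FPKM, and NOP10 had 159.3 and 179.1 FPKM against 145.5 and 166.6 FPKM. The groups overlapped for NOP10 alone among the 4. The order of levels in the particle was NOP10, NHP2, DKC1 and GAR1 in every library, with knockdown values of DKC1 and NHP2 close to each other. NOLC1, a snoRNP chaperone also known as Nopp140, had 84.9 and 114.8 FPKM in the knockdown libraries, against 62 and 81 FPKM in the control libraries, and the lower knockdown value hardly exceeded the higher control value (limma adjusted p = 0.273). The 8 snoRNP genes summed to 554 ± 53.0 FPKM in the knockdown and 448 ± 38.0 FPKM in the control (SD, n = 2 each), a ratio of 1.24, and NOP10, FBL and NOLC1 were the most abundant of them.

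The small-subunit factors held both the smallest p and the members nearest to no difference. NOL11, a vertebrate member of the UTP-A complex that is needed for rRNA transcription as well as processing, had 29.9 and 32.3 FPKM in the knockdown libraries, against 15.3 and 15.7 FPKM in the control libraries. Its ratio of means was 2.01, with a log2 fold change of 0.96 (SE 0.105, limma adjusted p = 0.062), and the gap between groups was several times the gap within them. The adjusted p passed 0.05 in 1 of 15 alternative settings, at 0.0459 with only genes of at least 5 FPKM tested, and reached 0.255 without control replicate 2. WDR43, also of UTP-A, had 32.8 and 37.2 FPKM against 23.1 and 23.3 FPKM (log2 fold change 0.57, SE 0.113, limma adjusted p = 0.104), and UTP15 had 8.14 and 6.97 FPKM against 5.66 and 5.19 FPKM. HEATR1, the largest protein of the complex, had 21.2 and 19.7 FPKM against 17.9 and 14.3 FPKM, WDR75 had 14.4 and 13.4 FPKM against 12.1 and 12.3 FPKM, and UTP4, mutated in a childhood liver cirrhosis, had 18 and 20.2 FPKM against 17.3 and 17.8 FPKM. Both knockdown values lay above both control values for all 6 UTP-A genes, against 35.6% of tested genes. Yet their log2 fold changes ran from 0.11 for UTP4 to 0.96 for NOL11.

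In the UTP-B complex, another building block of the processome, both knockdown values lay above both control values for 4 of 6 genes. The share of all tested genes was 35.6%. WDR3 had 6.04 and 6.86 FPKM in the knockdown libraries, against 4.32 and 4.83 FPKM in the control libraries, and UTP6 had 15.1 and 16.5 FPKM against 11.1 and 12.6 FPKM; both had an unadjusted limma p under 0.05 and an adjusted p of 0.159 and 0.168. UTP18 had 22.5 and 28.4 FPKM against 18.6 and 21.8 FPKM, and WDR36, a gene linked to glaucoma, had 7.05 and 6.52 FPKM against 5.80 and 4.59 FPKM, both without overlap of groups. TBL3 had 5.52 and 4.44 FPKM against 4.87 and 4.41 FPKM, and the groups overlapped. PWP2 was the member of lowest level and the only member with a log2 fold change below 0: it had 1.58 and 0.67 FPKM in the knockdown libraries, on either side of 1.23 and 1.20 FPKM in the control libraries (log2 fold change -0.09, SE 0.251, limma adjusted p = 0.847). Its sign turned when knockdown replicate 2 was left out, to 0.22. The median log2 fold change was 0.32 over the 6 UTP-B genes and 0.37 over the 6 UTP-A genes.

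Of 9 other proteins of the processome 5 were higher at an unadjusted limma p under 0.05, against 14.8% of tested genes. BMS1, a GTPase, had 27.5 and 32.7 FPKM in the knockdown libraries, against 18.4 and 17.9 FPKM in the control libraries (log2 fold change 0.69, SE 0.126, limma adjusted p = 0.0957). It has 18 named pseudogenes in the table, which together had 5.84 and 4.89 FPKM in the knockdown libraries, against 7.19 and 2.96 FPKM in the control libraries; how reads were divided among these copies is uncertain. RCL1, which in yeast joins the processome with BMS1, had 5.81 and 5.15 FPKM against 4.80 and 4.78 FPKM with a 95% interval of the log2 fold change from -0.15 to 0.47. UTP20, a very long scaffold protein, had 10.9 and 10.7 FPKM against 7.75 and 5.52 FPKM, and NOL6 had 10.8 and 9.31 FPKM against 6.83 and 5.68 FPKM; in both genes the knockdown replicates lay above both controls. NOP14 had 27.6 and 27.9 FPKM against 21.2 and 21 FPKM, with the closest replicates of any member on the log2 scale (log2 fold change 0.38, SE 0.0983, limma adjusted p = 0.131), while NOC4L, its partner in yeast, had 9.04 and 6.40 FPKM against 5.88 and 5.99 FPKM. UTP14A, which activates a helicase of the processome, had 29.8 and 36.3 FPKM against 21.8 and 24.9 FPKM, and RRP9, the protein specific to the U3 snoRNP, had 15.5 and 15 FPKM against 12.5 and 12.8 FPKM. UTP3 did not follow the others, with 23.9 and 29.5 FPKM in the knockdown libraries and 26.8 and 25.6 FPKM in the control libraries, overlapping groups and a log2 fold change of 0.02 whose sign turned under quantile normalization, median centring and rescaling of nuclear genes.

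The factors that accompany the small subunit out of the nucleolus had the largest median of any subgroup with more than 1 gene, 0.63 over 5 genes. RIOK1, an atypical kinase of the last cytoplasmic steps, had 19 and 20.8 FPKM in the knockdown libraries, against 10.3 and 10.7 FPKM in the control libraries (log2 fold change 0.86, SE 0.108, limma adjusted p = 0.0723). TSR1, a GTPase-like protein that keeps the immature subunit from joining translation, had 47.7 and 50.4 FPKM against 30.6 and 31.6 FPKM (log2 fold change 0.64, SE 0.103, limma adjusted p = 0.0847). LTV1, an export and assembly factor, had 27.5 and 35.6 FPKM against 17.9 and 22 FPKM, and RRP12 had 12.2 and 9.79 FPKM against 7.12 and 7.06 FPKM. RIOK2, the second atypical kinase, stood much lower, at 3.69 and 4.82 FPKM against 2.47 and 3.24 FPKM. For all 5 genes the knockdown values lay above the control values, as they did for 35.6% of tested genes. For RIOK2 the limma p missed 0.05 before adjustment, at 0.0591.

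Among the large-subunit factors all 18 members had a log2 fold change above 0 and 12 had an unadjusted limma p under 0.05. Of all tested genes 61.4% were above 0 and 14.8% were higher at that p. SBDS, the protein mutated in Shwachman-Diamond syndrome, which helps to release EIF6 from the nearly finished subunit, had 85.5 and 95.3 FPKM in the knockdown libraries, against 52.8 and 38.5 FPKM in the control libraries. Its log2 fold change of 0.99 was the highest of all members (SE 0.184, limma adjusted p = 0.0971), but its control replicates were far apart. SBDSP1, a transcribed pseudogene copy, had 30.19 and 36.24 FPKM in the knockdown libraries, against 19.98 and 23.03 FPKM in the control libraries, so copy and gene were both higher and the division of reads between them is uncertain.

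The 11 pre-60S assembly factors had a median log2 fold change of 0.51. Of them 8 were higher at an unadjusted limma p under 0.05, against 14.8% of tested genes. NOL8 had 15.8 and 16.6 FPKM in the knockdown libraries, against 11 and 9.38 FPKM in the control libraries, NOC3L had 17.3 and 20.1 FPKM against 11.8 and 11.9 FPKM, and NOC2L, the partner of NOC3L in yeast, had 17 and 16.3 FPKM against 11.9 and 11.3 FPKM. The limma adjusted p of these 3 genes lay between 0.102 and 0.111, with log2 fold changes from 0.48 to 0.62. RRP1B had 14.5 and 14.3 FPKM against 10.3 and 8.49 FPKM, NOP16 had 18.1 and 22.1 FPKM against 11.8 and 13.8 FPKM, and BRIX1 had 20.1 and 22.9 FPKM against 15.8 and 13.8 FPKM. RRS1, which loads the 5S rRNA particle, had 44.3 and 46.5 FPKM against 31.7 and 35.5 FPKM and is a gene with a single transcript in GENCODE 29. NIP7 had 13.2 and 14 FPKM against 10.4 and 11 FPKM, and EBNA1BP2 had 36.6 and 39.7 FPKM against 28.8 and 34.2 FPKM. In all of these genes the knockdown libraries lay above the controls.

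NOP2 and PPAN were the uneven members of that group. NOP2, a methyltransferase of the large-subunit rRNA, had 23.2 and 22.4 FPKM in the knockdown libraries, against 11.6 and 19.4 FPKM in the control libraries, with control replicate 1 far below control replicate 2 (log2 fold change 0.57, SE 0.246, limma adjusted p = 0.257). Its log2 fold change was 0.23 without control replicate 1 and 0.92 without control replicate 2. PPAN had 16.9 and 10.3 FPKM in the knockdown libraries and 9.12 and 12.5 FPKM in the control libraries, with overlapping groups. The readthrough gene PPAN-P2RY11, which shares its exons, had 0.40 and 5.48 FPKM in the knockdown libraries, against 4.35 and 0.12 FPKM in the control libraries; in each group the library with more PPAN had less of the readthrough gene. How the reads of these shared exons were divided is uncertain.

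The median log2 fold change was 0.41 over the 3 nucleolar GTPases and 0.36 over the 3 genes of the PeBoW complex. GNL2 had 10.6 and 11.5 FPKM in the knockdown libraries, against 7.70 and 7.84 FPKM in the control libraries, and GNL3, known as nucleostemin for its level in stem cells, had 38.9 and 42.5 FPKM against 28.1 and 32.8 FPKM. GTPBP4 had 26.5 and 32.4 FPKM against 21.3 and 24 FPKM. For these 3 GTPases the knockdown values lay above the control values, against 35.6% of tested genes, with log2 fold changes from 0.36 to 0.46. In PeBoW, the complex of PES1, BOP1 and WDR12 that is needed for processing of the large-subunit rRNAs, PES1 had 18 and 21.3 FPKM against 14.2 and 15.9 FPKM and WDR12 had 5.95 and 7.02 FPKM against 4.47 and 5.20 FPKM. BOP1 had 14.4 and 12.9 FPKM in the knockdown libraries and 13.1 and 10.8 FPKM in the control libraries, and there the groups overlapped.

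Of the 4 multifunctional proteins NPM1 and NCL had high levels, and LYAR and MYBBP1A had levels like those of other classes. NPM1, a histone and RNA chaperone and the most abundant member, had 333.6 and 473.6 FPKM in the knockdown libraries, against 267.1 and 345.5 FPKM in the control libraries, and the lower knockdown value lay below the higher control value. It has 46 named pseudogenes, which together had 96.4 and 139 FPKM in the knockdown libraries, against 81.9 and 103 FPKM in the control libraries, most of it from NPM1P27. NCL, which codes for nucleolin, had 101.2 and 132.7 FPKM against 96.3 and 88.8 FPKM (log2 fold change 0.32, SE 0.167, limma adjusted p = 0.326). LYAR, a nucleolar cell growth regulator, had 24.3 and 28.4 FPKM against 16 and 17.2 FPKM (log2 fold change 0.63, SE 0.126, limma adjusted p = 0.104) and was the only member of this class with an unadjusted p under 0.05. MYBBP1A, which restrains rRNA transcription, had 18.4 and 16.2 FPKM in the knockdown libraries and 18 and 13.5 FPKM in the control libraries, with overlapping groups.

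**Figure D2:**
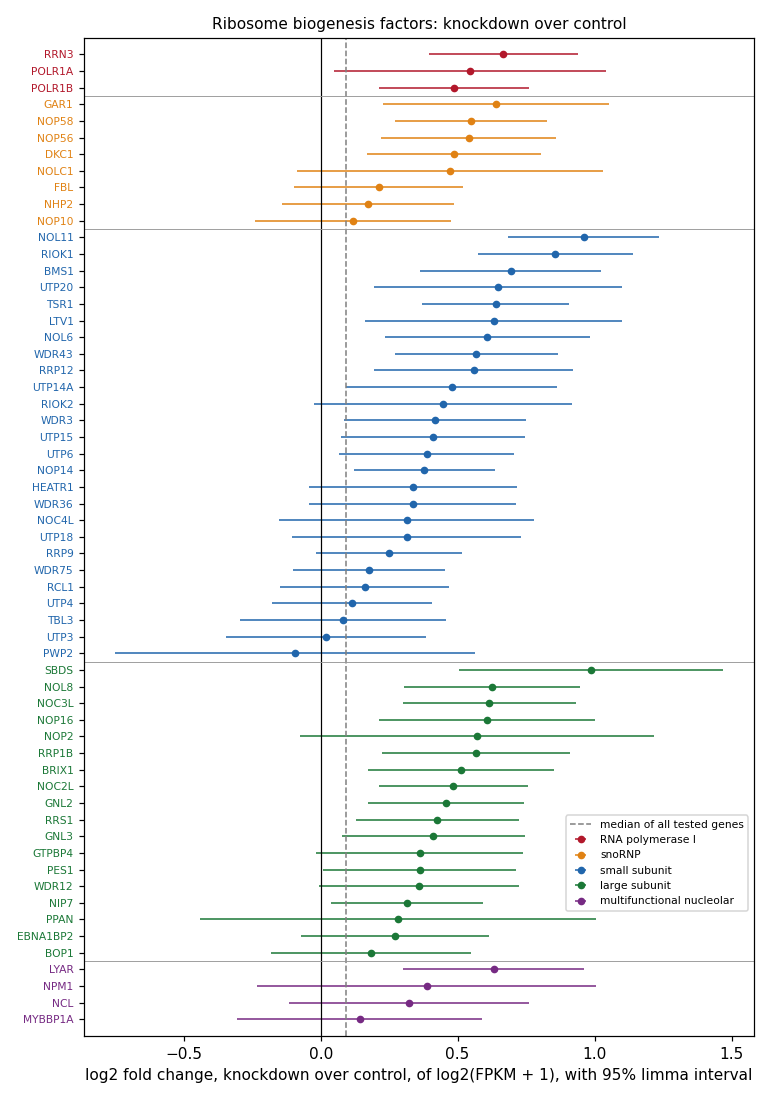
Log2 fold change of log2(FPKM + 1), knockdown over control, for the 59 members in rows, with the 95% interval from limma and colours for the 5 classes; the dashed line is the median of all tested genes, 0.09. The points run from -0.09 for PWP2 to 0.99 for SBDS, and 34 intervals lie above 0.

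The class medians lay close together. The median log2 fold change was 0.54 for RNA polymerase I (3 genes), 0.48 for snoRNPs (8), 0.44 for the large subunit (18), 0.40 for the small subunit (26) and 0.35 for the multifunctional proteins (4). Lists of other factors, which hold no member, had lower medians. These were 0.34 for RNA polymerase I (18 genes) and 0.37 for snoRNPs and their assembly (11). For the large subunit the list median was 0.34 (43) and for the small subunit 0.23 (33). Single members ranged from 0.49 to 0.67 in the RNA polymerase I class and from -0.09 to 0.96 in the small-subunit class. Summed FPKM in the knockdown over the control gave a ratio of 1.55 for RNA polymerase I, 1.45 for the large subunit, 1.41 for the small subunit, 1.31 for the multifunctional proteins and 1.24 for snoRNPs. Without knockdown replicate 2 the log2 ratio of sums was 0.15 for the multifunctional proteins and 0.20 for snoRNPs, so which class is lowest rests on that library. The differences between classes were not tested.

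The class medians were above 0 in each of the 4 pairings of a knockdown with a control library. The small-subunit median was the steadiest of the 3 larger classes, from 0.34 to 0.42. The large-subunit median ran from 0.38 to 0.54 and the snoRNP median from 0.21 to 0.55. For all tested genes the median ran from 0.02 to 0.15, below every class in every pairing. Within groups, all 8 snoRNP genes were higher in knockdown replicate 2 than in knockdown replicate 1, by a median of 0.15, and 7 of 8 were higher in control replicate 2 than in control replicate 1. Across all tested genes the median of replicate 2 minus replicate 1 was -0.049 in the knockdown and -0.056 in the control. The count of members with an unadjusted p under 0.05 was 19 without knockdown replicate 2, which is 32.2% of members against 9.06% of the tested genes in that setting.

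**Figure D3:**
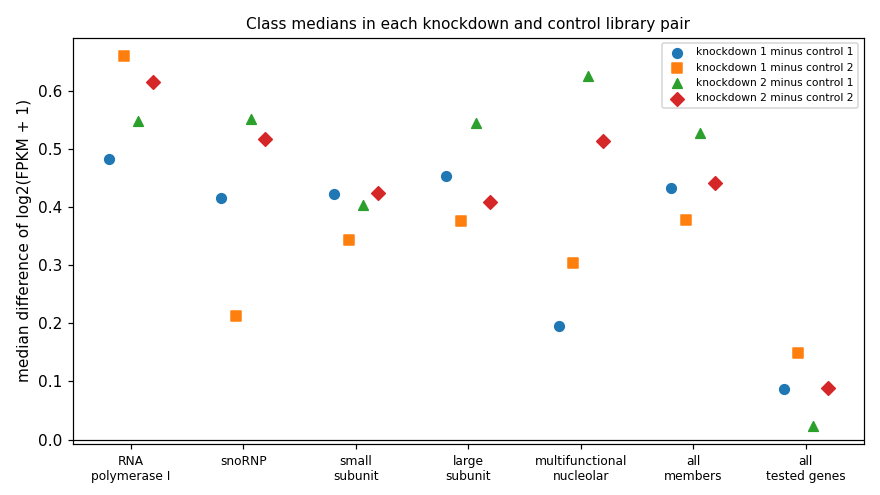
Median difference of log2(FPKM + 1) for each class, all 59 members and all 12411 tested genes, in each of the 4 pairings of 1 knockdown library with 1 control library, 1 symbol per pairing. All class medians lie between 0.20 and 0.66, above those of all tested genes, which lie between 0.02 and 0.15.

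The median difference was larger for members with less GC in their transcripts. Among the 20 members of lowest GC content, from 36.5% to 43.1%, the median log2 fold change was 0.53 and 15 had an unadjusted p under 0.05. Among the 19 of middle GC content the median was 0.39 and 9 did. Among the 20 of highest GC content, from 50.9% to 65.2%, the median was 0.37 and 10 did. Tested genes were divided at the same GC values. Their low set ran from 23.08% to 43.15% and their high set from 50.77% to 83.89%, beyond the members at the outer ends. In their low, middle and high sets the medians were 0.17, 0.10 and 0.02. Shares of 21.1%, 14.6% and 10.2% were higher at an unadjusted p under 0.05. Spearman's rho between log2 fold change and GC was -0.34 over the 59 members and -0.22 over 12394 tested genes; genes of 1 set of libraries are not independent. After a smooth dependence on GC and length was removed from each library, the members' median was 0.43 and 40 had an unadjusted p under 0.05, against 17.9% of tested genes.

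**Figure D4:**
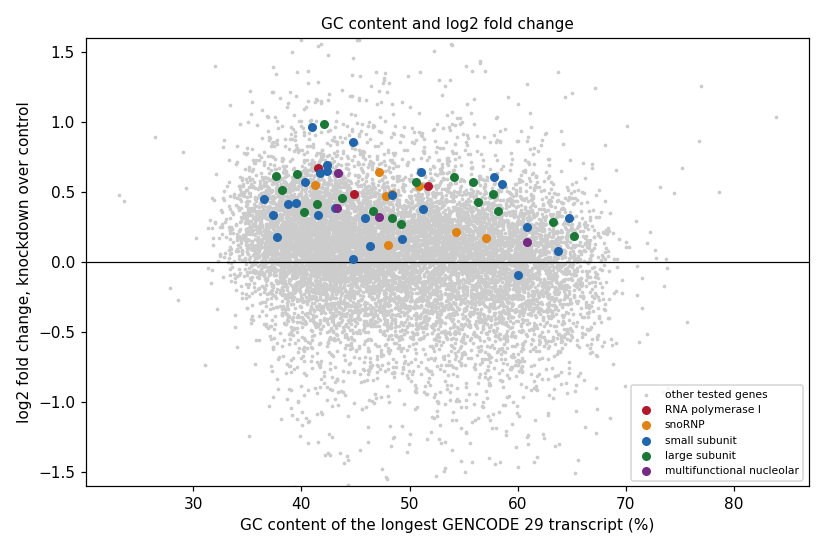
Log2 fold change, knockdown over control, against the GC content of the longest transcript in GENCODE 29, for 59 members in class colours and other tested genes in grey; 67 grey genes lie outside the vertical range. Members of every class lie mostly above 0 over the whole GC range.

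Promoter sequences of 53 members were matched by symbol in RefSeq (GRCh38.p14), as 61 windows of 250 bases before to 50 after a transcription start. They are shown because the members had like differences and because the E-box, the letters CACGTG, is the site that MYC and related factors are known to bind. Binding of MYC or of other factors was not measured here, and the part of these sites in the differences was not tested. The letters, which read the same on both strands, were found for 23 of 53 members, or 43.4%, against 12.9% of 8542 tested genes and 8.77% of 27305 genes in the table of promoters. Counted over windows, this is 39.3% of the members' 61, against 9.58% of the tested genes' windows and 7.26% of all 35116. The members' windows had a median GC content of 64.3% and those of tested genes 65.0%. By class the letters were found for 11 of 25 small-subunit genes, 7 of 15 large-subunit genes, 3 of 6 snoRNP genes, 2 of 4 multifunctional genes and 0 of 3 RNA polymerase I genes. In the 30-base windows that follow, written 5′ to 3′ on the strand of the gene, the E-box is in capitals.
UTP20 (chr12:101280083-101280112, plus strand): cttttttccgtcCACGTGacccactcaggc
NOL8 (chr9:92325342-92325371, minus strand): gctccgttgggaCACGTGaccagaagttag
RRP9 (chr3:51941892-51941921, minus strand): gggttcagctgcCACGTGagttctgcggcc
UTP4 (chr16:69132621-69132650, plus strand): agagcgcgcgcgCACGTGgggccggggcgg
NOP10 (chr15:34343130-34343159, minus strand): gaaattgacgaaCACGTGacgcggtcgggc
LYAR (chr4:4290068-4290097, minus strand): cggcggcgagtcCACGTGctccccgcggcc
WDR43 (chr2:28894658-28894687, plus strand): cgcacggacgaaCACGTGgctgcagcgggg
GNL2 (chr1:37595917-37595946, minus strand): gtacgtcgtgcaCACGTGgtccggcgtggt
GNL3 (chr3:52686026-52686055, plus strand): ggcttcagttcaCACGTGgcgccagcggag
FBL (chr19:39846356-39846385, minus strand): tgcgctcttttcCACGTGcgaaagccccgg
PWP2 (chr21:44107388-44107417, plus strand): tgagctgcggcaCACGTGcgacggccgtga
NOL6 (chr9:33473894-33473923, minus strand): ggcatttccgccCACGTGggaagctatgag
NOC3L (chr10:94362903-94362932, minus strand): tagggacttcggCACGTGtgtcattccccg
GAR1 (chr4:109815781-109815810, plus strand): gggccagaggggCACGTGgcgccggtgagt

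The E-boxes lay close to the start of transcription. Of 26 sites, 21 began within 50 bases of the start on either side, which is 80.8%, against 39.4% of 1208 sites in windows of tested genes; each window reaches only 50 bases past the start. In UTP20 the site began at -10, in NOL8 at -9, in RRP9 at -5 and in UTP4 at -16, and in WDR43 and GNL2 it began at base 4 after the start. The only site lay farther upstream in LYAR, at -64, and in UTP14A, at -241. Beside a nearer site, a farther one lay at -89 in UTP18, at -170 in NOP10 and at -237 in EBNA1BP2. Members with and without the letters had like differences: the median log2 fold change was 0.41 over the 23 members with an E-box and 0.41 over the 30 without, and 13 and 17 of them had an unadjusted p under 0.05.

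**Figure D5:**
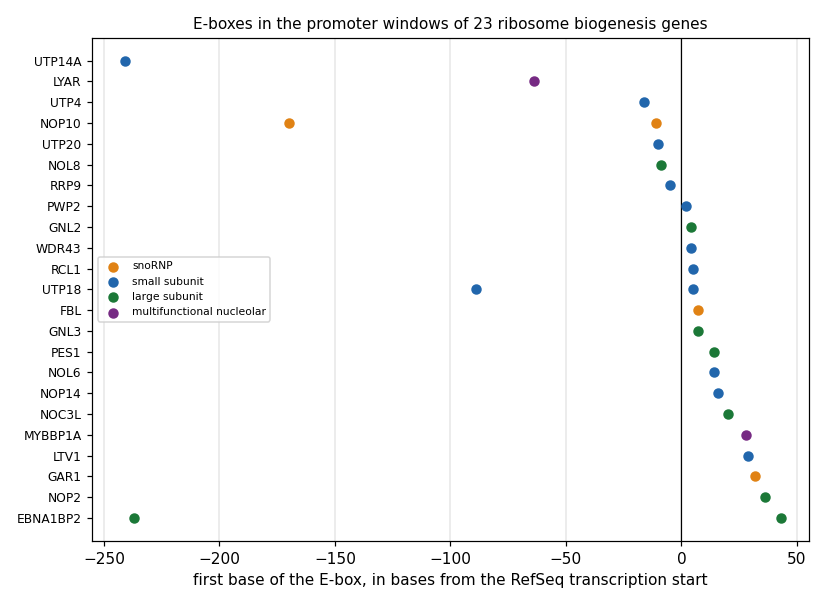
Position of each E-box found in the promoter windows of 23 members, 1 row per gene, as the distance of its first base from the RefSeq transcription start (vertical line), coloured by class. Of 26 sites 21 lie within 50 bases of the start.

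A short core bound by ETS factors, CGGAAG or CTTCCG on the other strand, was found for 35 of 53 members, or 66.0%, against 40.6% of tested genes. It was present for 3 of 3 RNA polymerase I genes, none of which had an E-box. The 250 bases before the start of RIOK1 hold the core at -37 and -20 and those of UTP20 hold an E-box, both in capitals here. RIOK1 lies on chromosome 6 and UTP20 on chromosome 12, each on the plus strand.
RIOK1 (chr6:7389558-7389807): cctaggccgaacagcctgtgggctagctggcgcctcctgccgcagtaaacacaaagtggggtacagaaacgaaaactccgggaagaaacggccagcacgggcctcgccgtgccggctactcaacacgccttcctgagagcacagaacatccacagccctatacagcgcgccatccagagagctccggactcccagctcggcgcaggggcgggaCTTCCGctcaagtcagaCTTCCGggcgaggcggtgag
UTP20 (chr12:101279855-101280104): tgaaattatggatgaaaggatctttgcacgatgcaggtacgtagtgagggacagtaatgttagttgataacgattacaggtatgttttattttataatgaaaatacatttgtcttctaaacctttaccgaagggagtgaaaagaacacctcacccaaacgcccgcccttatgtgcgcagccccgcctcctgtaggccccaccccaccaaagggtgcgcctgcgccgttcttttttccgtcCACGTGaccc

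The level of MYC itself was uneven and did not separate the groups. MYC had 11.6 and 28.3 FPKM in the knockdown libraries and 34.3 and 1.38 FPKM in the control libraries, so the highest and the lowest value were both in controls. Of 9 tested genes of the MYC network 3 were higher and 0 lower at an unadjusted limma p under 0.05, against 14.8% higher and 8.00% lower of all tested genes. They were MGA, with 4.47 and 4.70 FPKM in the knockdown libraries against 3.38 and 2.28 FPKM in the control libraries, MLX, with 17.8 and 19.1 FPKM against 8.03 and 13.8 FPKM, and MAX, the binding partner of MYC, with 10.9 and 10.1 FPKM against 8.29 and 8.52 FPKM; their limma adjusted p was 0.173, 0.185 and 0.213.

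Other genes of the pathway, from lists that hold no member, also had higher values in the knockdown, with a smaller median. These lists, like the members, were chosen with earlier results of these data known, so they are not an independent check. Of 146 tested genes 129 had a log2 fold change above 0, 60 were higher and 2 lower at an unadjusted limma p under 0.05, 0 passed after adjustment, and the median was 0.29. Of all tested genes 61.4% were above 0, and at that p 14.8% were higher and 8.00% lower. By that unadjusted p, nucleolar RNA helicases had 10 of 16 higher, with a median of 0.38; DDX18 had 22.5 and 25.1 FPKM in the knockdown libraries, against 15.6 and 14.6 FPKM in the control libraries, and DDX49 had 12.9 and 11.7 FPKM against 7.67 and 7.77 FPKM. Other large-subunit factors had 19 of 43 higher and 2 lower; CCDC86 had 37.9 and 35.4 FPKM against 18.1 and 18.7 FPKM, with the same adjusted p as NOL11, 0.062. Other RNA polymerase I factors had 9 of 18 higher, among them TAF1D (22.2 and 19.2 FPKM against 13.7 and 13.4 FPKM) and TCOF1, the treacle protein of Treacher Collins syndrome (30.7 and 28.5 FPKM against 21.3 and 20.1 FPKM). The same list holds POLR2E, POLR2F, POLR2H, POLR2K and POLR2L, subunits shared with other RNA polymerases, and POLR2F, POLR2K and POLR2L were among the 9. Of these 18 factors 3 had a log2 fold change below 0. Other snoRNP and assembly factors had 6 of 11 higher, other small-subunit factors 10 of 33, with ESF1 at 17.2 and 17.2 FPKM against 10.1 and 8.82 FPKM, and the RNA exosome and rRNA nucleases 6 of 25, or 24%, with a median of 0.15.

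GENCODE 29 places named small nucleolar RNAs inside 9 of the 59 genes, or 15.3%. Of tested protein-coding genes, members included, 1.93% hold a small nucleolar RNA, named or not. The hosts among the members were NOP58, NOP56, DKC1, NOL11, WDR43, TSR1, PPAN, GNL3 and NCL. They had a median log2 fold change of 0.54, against 0.41 for the other 50 members. At an unadjusted p under 0.05, 7 of the 9 hosts and 27 of the other 50 members were higher, against 14.8% of tested genes. The 202 tested protein-coding genes that host a snoRNA had a median of 0.19, and 51 of them were higher at that p. The libraries were made from polyadenylated RNA, and of 24 hosted RNAs with values, 4 were listed at 0 in all libraries. SNORD69, in GNL3, had 3.79 and 3.25 FPKM in the knockdown libraries, against 0.43 and 0.68 FPKM in the control libraries, and had the highest knockdown values of them. Values of RNAs this short are uncertain on the FPKM scale.

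In the same annotation 11 members, among them NOP58, NOP56, DKC1, HEATR1, LTV1, BOP1 and RRS1, share exons with another gene on the same strand, so their values are uncertain where reads could be split. Without such genes 48 members were tested, with a median log2 fold change of 0.43, 47 above 0 and 28 with an unadjusted limma p under 0.05. Over the 10242 genes tested in that setting the median was 0.09, and 15.8% were higher at that p.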

How the data were processed

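RNA-seq was compared between 2 knockdown and 2 control libraries of HaCaT cells. The authors deposited FPKM values with 2 decimals, and a fold (ratio) column of mean knockdown over mean control FPKM with its log2. For every member that deposited log2 value and one computed from the FPKM means differed by at most 0.00897. The submitters' processing notes name cutadapt 1.9, HISAT2 2.0.4, StringTie 1.3.4d, edgeR and DESeq2 without saying what each did; for build, annotation and shared reads nothing is stated. Per the labels' protocols, mRNA was selected with oligo(dT) beads and second strands were marked for removal. There were 0 value columns without a sample.

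Among low values, 28.6% to 32.9% came within 0.1 of a whole read at the best depth tried, against a median of 19.7% to 20.0%, so depth is unknown and no counting interval is given. On log2(FPKM + 1), genes averaging 1 FPKM or more in either group were kept (12411) and limma 3.58.1 (R 4.3.3, trend, two-sided) was fitted to group alone, adjusted by Benjamini-Hochberg over all of them. An exact permutation test of 2 against 2 cannot go below 0.333. In simulated data on 12411 genes, changed genes were drawn from those with a mean log2(FPKM + 1) above 2. Of those changed 4-fold 97.8% were recovered, and 8.96% of calls were false. The members and lists were chosen with earlier results of these data known. By rule, per-library values were given for the members of smallest p, highest and lowest FPKM in each class and a set of main enzymes, and outside the members for MYC, the hairpin's target and up to 2 genes of smallest p per list; the other members, MAX, the pseudogenes, PPAN-P2RY11 and SNORD69 were added after their values were seen. GC content, overlaps and hosted RNAs came from GENCODE 29 (GRCh38), where 58552 of 58825 gene IDs were found. Of 61 promoter windows, 52 had bases after the start in a transcript on the printed strand and 0 on the other. The 15 alternatives covered scaling, pseudocount, filter, trend, replicate block, GC and length, overlapping genes and leaving out each library.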

Additional observations from a re-analysis of the deposited data

How the results depend on the processing

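Depth is unknown, which leaves the counting error of low members such as PWP2 without a bound. The direction of the members' median, 0.43 on the log2 scale, held in all 15 alternative settings, from 0.34 under quantile normalization to 0.50 without knockdown replicate 1. The count of members higher at an unadjusted p under 0.05 was 24 to 45 of 59 over the 11 settings that kept all libraries, against 34 as reported, and 19 to 29 when 1 library was left out (fewest without knockdown replicate 2). The share of all tested genes higher at that p moved too, with 14.8% as reported, 9.54% under median centring (24 members), 8.50% with no filter (34), 20.1% with the replicate block (45) and 7.95% to 12.1% with 1 library left out. With genes of at least 5 FPKM, 56 members were tested and 1 of them, NOL11, had an adjusted p under 0.05; in the other 14 settings 0 did. With the replicate number as a block, 45 members were higher at an unadjusted p under 0.05, and 0 passed after adjustment; over all tested genes the calls after adjustment were 0 with the block, with no filter and with any 1 library left out, against 31 as reported. With and without the block, the unadjusted higher calls over all tested genes were 2495 and 1834. The labels do not say that a number marks a shared batch, and the deviations of same-numbered libraries correlated at 0.12 over tested genes.

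Some class values moved by more than 1 SD between replicates, and the cause was not tested. Quantile normalization gave a median of 0.37 for snoRNPs, 0.30 for the small subunit and 0.46 for RNA polymerase I, and log2 ratios of summed FPKM of 0.36 for the small subunit, 0.41 for the large subunit and 0.51 for RNA polymerase I. Median centring gave medians of 0.40, 0.32 and 0.46 for snoRNPs, the small subunit and RNA polymerase I, and summed ratios of 0.41, 0.46 and 0.55 for the small subunit, the large subunit and RNA polymerase I. The RNA polymerase I summed ratio was 0.59 with nuclear genes rescaled and 0.58 with GC and length removed, and its median was 0.64 with a pseudocount of 0.1 and 0.59 with 0.5. Without overlapping genes the snoRNP median was 0.21, with NOP56, NOP58 and DKC1 left out by construction, and the large-subunit summed ratio was 0.65. With 1 library left out the medians ran from 0.32 to 0.58 for snoRNPs, 0.52 to 0.69 for RNA polymerase I and 0.18 to 0.58 for the multifunctional class, and the RNA polymerase I summed ratio from 0.59 to 0.68.

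Among the members, signs turned for UTP4, UTP3, TBL3, PPAN, PWP2 and MYBBP1A: UTP4 to -0.017 and UTP3 to -0.11 under quantile normalization, TBL3 to -0.00019 and UTP3 to -0.060 under median centring, and UTP3 to -0.023 with nuclear genes rescaled. With 1 library left out the log2 fold change ran from -0.13 to 0.17 for UTP3, -0.051 to 0.21 for TBL3, -0.049 to 0.62 for PPAN, -0.41 to 0.22 for PWP2 and -0.052 to 0.34 for MYBBP1A.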
